A study of Mus musculus with 4 samples.

Results

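The mouse microRNA hairpins mmu-mir-23a, mmu-mir-23b, mmu-mir-24, mmu-mir-27a and mmu-mir-27b, also written without the species prefix, were examined in small RNA sequencing of mouse sperm. A read sequence was taken as theirs when its deposited annotation named only these 5 hairpins, with copy numbers removed. Sequences that fit a pair of them kept a joint name, either mir-23a/mir-23b or mir-27a/mir-27b. Sequences of 15 to 17 nt were kept apart from those of 18 nt or longer. The sequences were thus chosen by annotation and length, while the 5 hairpins themselves were picked with earlier results of these data known. This gave 5 hairpin names and 2 joint names of 430 miRNA names, and 91 of 3452 miRNA sequences, 68 of them of 18 nt or longer. These sequences held 22355 reads over the 4 libraries. Control replicates 1 and 2 held 38 and 86 of the sequences, and Mdd replicates 1 and 2 held 19 and 29. In all, 17 sequences occurred in every library and 49 in 1 library. No name joined one of the 5 hairpins with any other.

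The study asked how small non-coding RNA in sperm differs in male mice with depressive-like behaviour after chronic unpredictable mild stress. It has 2 control and 2 Mdd libraries, all from C57BL mice. Mdd mice met a randomly chosen stressor each day, among them a tilted or damp cage, an empty cage, noise, flashing light, restraint, isolation and a disturbed day cycle, and control mice received routine care only. The tissue label reads testis and testicular cells while the protocol extracts RNA from sperm, and no label ties the replicates to different animals. A p-value here therefore reflects only how these samples scatter, and that scatter may be technical.

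Mammals carry these hairpins in a pair of clusters, one holding mir-23a, mir-27a and a copy of mir-24, the other mir-23b, mir-27b and the second copy of mir-24. Each cluster can be transcribed as a single precursor, from which Drosha and Dicer release the hairpins and then short duplexes. One strand of a duplex, here mostly the 3p arm, is loaded into an Argonaute protein and pairs with target mRNAs through its seed. The clusters are known from endothelium, muscle, fat and blood cells.

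In the GRCm38.p6 build (RefSeq positions, GENCODE genes) the mir-23a cluster spans 404 bp of chromosome 8, plus strand, with Mir23a at 84208518 to 84208592, Mir27a at 84208672 to 84208758 and Mir24-2 at 84208815 to 84208921. No other annotated gene overlaps Mir23a or Mir27a, and Mir24-2 overlaps an exon of the long non-coding RNA Gm26532. The mir-23b cluster spans 792 bp of chromosome 13, plus strand, with Mir23b at 63300484 to 63300557, Mir27b at 63300712 to 63300784 and Mir24-1 at 63301208 to 63301275. All 3 lie within the protein-coding gene 2010111I01Rik on the same strand, with Fancc on the opposite strand. Mir23b is intronic, whereas Mir27b and Mir24-1 overlap exons of non-coding or decay-targeted transcripts of that gene. The deposited tables give no coordinates, so these positions place the hairpins and not the reads.

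The mature 3p arms carried nearly all reads, and their sequences show which members share a target-pairing seed. RefSeq (GRCm38.p6) gives them as follows, with the seed, bases 2 to 8, in capitals.
miR-27a-3p: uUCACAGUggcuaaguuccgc
miR-27b-3p: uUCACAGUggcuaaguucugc
miR-24-3p: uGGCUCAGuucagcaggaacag
miR-23a-3p: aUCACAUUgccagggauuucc
miR-27a-3p and miR-27b-3p share the seed UCACAGU and differ by C19U, counted from the 5′ end of miR-27a-3p. Reads from base 1 that end before base 19 do not reach this difference and carried the joint name. Both genomic copies of mir-24 give the same miR-24-3p, so its reads cannot be assigned to a cluster.

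The most read sequence of each 3p arm is shown next, in the DNA letters of the deposited tables. Capitals mark the base that separates the paired hairpins.
mir-27a: ttcacagtggctaagttcCgc
mir-27b: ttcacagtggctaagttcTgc
mir-23a: acattgccagggattTcc
mir-23b: acattgccagggattAcc
mir-24: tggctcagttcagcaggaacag
The mir-27a read, 21 nt long, was seen 96 and 2833 times in control replicates 1 and 2 and 207 and 86 times in the Mdd replicates, and the mir-27b read 76, 1357, 17 and 190 times. The 18-nt mir-23a read had 75, 1340, 184 and 176 counts, and the mir-23b read, which differs from it by T16A counted from the read's 5′ end, had 120, 500, 254 and 106. The mir-24 read is the full miR-24-3p and had 139, 754, 157 and 851 counts. The mir-27 reads start at base 1 of the mature arm, whereas the mir-23a read starts at base 4 of miR-23a-3p.

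The libraries held 12845403 to 24112532 reads, of which 71902, 263748, 198947 and 94011 were miRNA reads of 18 nt or longer, in the same order of libraries. Levels below are CPM, that is reads scaled to the total of these miRNA reads. Reads were not independent molecules. The number of genome-matched sequences peaked at 7, 10, 38 and 8 copies, and intervals and limits cover counting error only. Divided by those copies, the reads of the 5 hairpins came to 15.1 to 61.9 in control replicate 1, 82.3 to 459 in control replicate 2, 6.68 to 13.3 in Mdd replicate 1 and 17.5 to 205.5 in Mdd replicate 2. Mdd replicate 1 is the thinnest source for these hairpins.

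Control replicate 2 stood apart from the other 3 libraries in miRNAs of other cell types. The 4 striated muscle markers, all with reads, summed to 65737 CPM there, against 3880 in control replicate 1 and 989 to 1488 in the Mdd libraries. The endothelial marker mir-126a, with mir-126b at 0, was at 13323 CPM there, against 4089 in control replicate 1 and 872 to 2332 in the Mdd libraries. The 5 markers of smooth muscle and stroma, all with reads, summed to 58816 and 111182 CPM in the controls, and in Mdd 54361 and 73066. The 4 erythroid markers, all with reads, were lowest there, at 5718 CPM against 46313 in control replicate 1 and 50111 to 59564 in Mdd. The 5 epithelial markers, all with reads, summed to 8247 and 17293 CPM in the controls, and in Mdd 7354 and 17115, and the 3 leukocyte markers, all with reads, to 654 and 830 against 357 and 223. Germ cell markers were abundant, with 3 of 5 having reads (mir-449b and mir-449c at 0) and sums of 223610 and 103129 CPM in the controls, and in Mdd 257239 and 211465. Whether other cells contributed to the levels below was not tested, and in bulk samples fewer cells of a type and less RNA per cell cannot be told apart.

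All 5 hairpins were found in every library, and no member name passed the test between groups. With edgeR's quasi-likelihood test over 236 miRNA names, 0 were called at an adjusted p under 0.05 (0%), 11 had an unadjusted p under 0.05 (4.66%), and DESeq2 called 5 of 389 (1.29%). None of the 6 member names tested was among those 11. Of the 6, 5 had a negative log2 fold change of Mdd against control, as had 52.1% of all names, and the members' median was -1.09 against -0.04 for all names. For 2 of the 6, mir-23b and mir-27b, both Mdd libraries lay below both controls, a pattern held by 21.6% of all names tested. Without Mdd replicate 1, without Mdd replicate 2 and with all lengths counted, no member name was called, where 1.98%, 5.63% and 0.403% of all names were (1.19%, 4.58% and 0.403% as lower in Mdd).

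mmu-mir-27a, one source of the UCACAGU seed, had 248 and 4590 reads in the controls and 298 and 369 in Mdd. Its levels were 3449 and 17403 CPM in the controls, and in Mdd 1498 and 3925. Control replicate 2 was high and Mdd replicate 1 low, and the groups overlapped, since control replicate 1 lay below Mdd replicate 2. These levels leave out reads that depart from the hairpin in their last 1 to 3 bases, described further below. For the miR-27 family such reads numbered 278 and 3035 in controls, beside 661 and 7811 with the same start. In Mdd they numbered 1051 and 391, beside 849 and 889. How the levels and fold change would move with them was not tested. The log2 fold change was -2.01 (SE 0.91), with an unadjusted p of 0.0508 and an adjusted p of 0.775 by edgeR. Without control replicate 1 mir-27a was lower in Mdd, at -2.82 with an adjusted p of 0.00931, 1 of 7 calls among 288 names (2.43%). Without control replicate 2 the value was -0.24 with an adjusted p of 0.993. The call therefore rests on comparison with control replicate 2 alone. That library also stood apart in several of the cell type markers above, and whether this bears on mir-27a was not tested.

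mmu-mir-27b, the other source of that seed, had 433 and 3291 reads in the controls, and in Mdd 501 and 546. Its levels in the controls were 6022 and 12478 CPM, and the Mdd libraries had 2518 and 5808 CPM. The groups did not overlap, although control replicate 1 and Mdd replicate 2 were close. The log2 fold change of -1.18 (SE 0.73) did not pass, with an adjusted p of 0.952 by edgeR, and it was -0.42 without control replicate 2. The joint name mir-27a/mir-27b was sparse, at 264 and 512 CPM in the controls, and in Mdd 276 and 234, with a log2 fold change of -0.60 (SE 1.53) and an adjusted p of 0.992 by edgeR. With reads of all lengths it was -3.93, with an adjusted p of 0.331 by edgeR. The 15-to-17-nt reads this adds were 79 and 1915 in the control libraries and 0 in both Mdd libraries.

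mmu-mir-23a had 106 and 2161 reads in the controls, and in Mdd 271 and 295, or 1474 and 8193 CPM against 1362 and 3138 CPM. The groups overlapped, and only control replicate 2 was far above the rest. The log2 fold change was -1.17 (SE 0.91) with an adjusted p of 0.952 by edgeR, and it was 0.72 without control replicate 2. mmu-mir-23b was steadier, at 182 and 823 reads in the controls, and in Mdd 254 and 140. Its levels of 2531 and 3120 CPM in controls lay above 1277 and 1489 CPM in Mdd. Its mean was 2826 ± 417 (SD, n = 2) in controls and 1383 ± 150 (SD, n = 2) in Mdd, and the log2 fold change of -1.01 (SE 0.745) had an adjusted p of 0.952 by edgeR. The joint name mir-23a/mir-23b had 1 read of 18 nt or longer and was not tested.

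mmu-mir-24 had 194 and 1418 reads in the controls, and in Mdd 505 and 1644, or 2698 and 5376 CPM against 2538 and 17487 CPM. Mdd replicate 2 was high, and Mdd replicate 1 was the lowest of the 4 libraries. The log2 fold change was 1.26 (SE 0.89) with an adjusted p of 0.952 by edgeR. It was -0.47 without Mdd replicate 2 and -0.21 with all reads as the library size, a scaling that put the median of all names at -1.10.

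**Figure D1:**
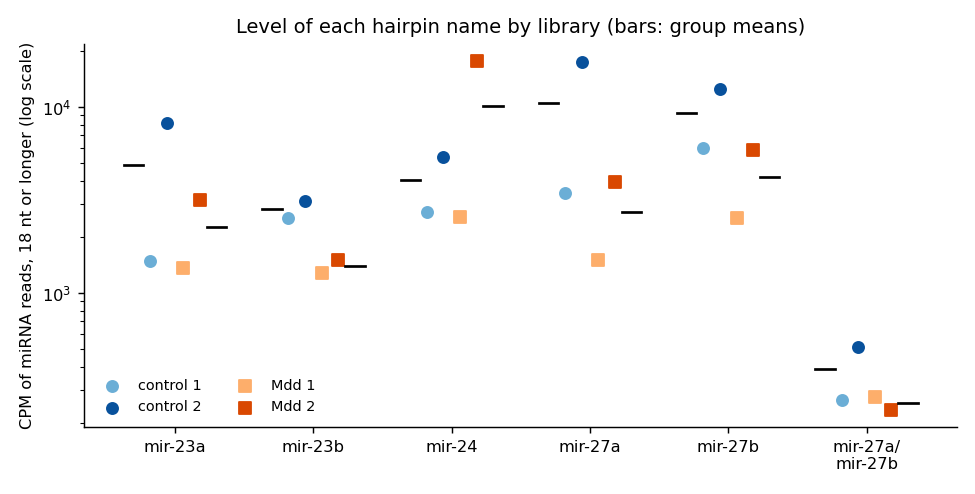
Level of each hairpin name and of the joint mir-27a/mir-27b name in each library, in CPM of miRNA reads of 18 nt or longer on a log axis; circles are controls, squares are Mdd and bars are group means. Groups do not overlap for mir-23b and mir-27b, control replicate 2 is highest for every name except mir-24, and Mdd replicate 2 is highest for mir-24.

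**Figure D2:**
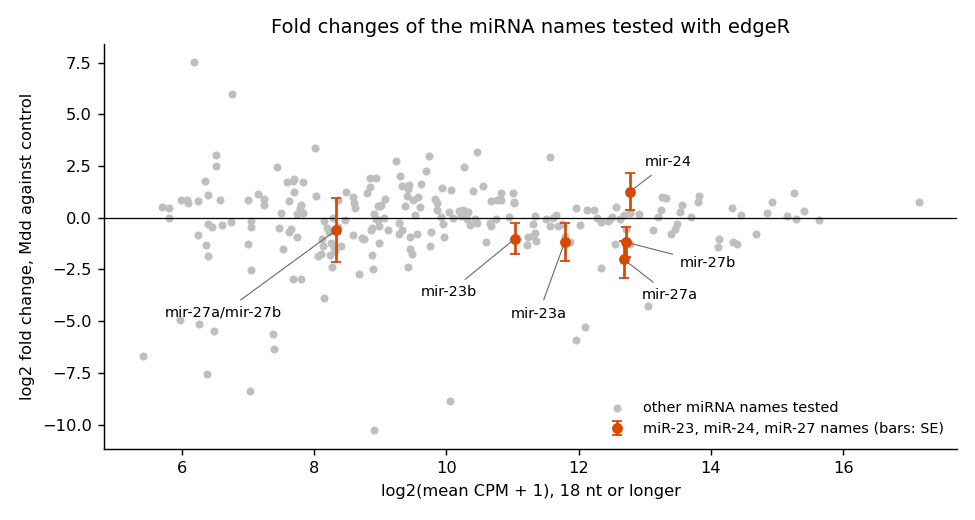
Fitted log2 fold change of Mdd against control plotted on log2(mean CPM + 1) for the 236 miRNA names tested, with members in colour and bars for the standard error. The 6 member names lie within the cloud of other names, between -2.01 for mir-27a and 1.26 for mir-24.

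The library with the highest level exceeded the lowest 11.6-fold for mir-27a, 6.89-fold for mir-24, 6.02-fold for mir-23a, 4.95-fold for mir-27b and 2.44-fold for mir-23b. By mean level the hairpins ranked 31 (mir-24), 35 (mir-27b), 37 (mir-27a), 55 (mir-23a) and 70 (mir-23b) of 389 miRNA names. These ranks compare read counts of RNAs of nearly one length. Within libraries the order varied: mir-27b led in control replicate 1, mir-27a in control replicate 2 and mir-24 in both Mdd libraries. All 5 together made up 1.64% and 4.71% of miRNA reads in controls, with 0.947% and 3.21% in Mdd. The means were 3.18% ± 2.17 and 2.08% ± 1.60 (SD, n = 2 each), with an exact two-sided permutation p of 0.667; 2 against 2 samples cannot go below 0.333.

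Within the member reads, miR-24 made up 16.4% and 11.4% in controls, against 26.8% and 54.5% in Mdd. The groups did not overlap, and the means were 13.9% ± 3.53 and 40.7% ± 19.6 (SD, n = 2 each; exact permutation p = 0.333, the smallest possible). This share was singled out after its values were seen, and no like share over other families was set beside it. In Mdd replicate 1 the level of mir-24 itself, at 2538 CPM, was the lowest of all libraries, so the share there does not show a raised mir-24. The difference of 26.7 percentage points was 12.9 without Mdd replicate 2 and 40.6 without Mdd replicate 1. The miR-27 family, mir-27a and mir-27b with their joint name, made up 59.2% and 64.5% in controls, against 45.3% and 31.1% in Mdd. miR-23 made up 24.4%, 24.04%, 27.9% and 14.4% in control replicate 1, control replicate 2, Mdd replicate 1 and Mdd replicate 2.

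The balance between the clusters can be read from miR-23 and miR-27 reads that carry a distinguishing base. The mir-23a cluster gave 36.5% and 62.1% of them in controls and 43.0% and 49.2% in Mdd. Means of 49.3% ± 18.1 and 46.1% ± 4.39 (SD, n = 2 each) did not differ beyond the spread (exact permutation p = 1). The controls lay at the extremes, on either side of both Mdd libraries. By hairpin, mir-27a was 36.4% and 58.2% of mir-27a plus mir-27b reads in controls, with 37.3% and 40.3% in Mdd. mir-23a was 36.8% and 72.4% of mir-23a plus mir-23b reads in controls, with 51.6% and 67.8% in Mdd. Counting error of the mir-23a share was at most ± 5.54 percentage points and of the mir-27a share at most ± 3.605 (95% Wilson intervals, control replicate 1). With reads divided by copies they were at most ± 23.2 and ± 19.2, in Mdd replicate 1.

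The level pattern most like that of the summed hairpins was that of mir-149, at 1641 and 4580 CPM in the controls, and in Mdd 658 and 2734. Likeness was the Euclidean distance of log2(CPM + 1) centred over the 4 libraries, 0.412 for mir-149 against a median of 2.66 over 213 names with at least 100 CPM. mir-3068 (0.683), mir-98 (0.798), mir-29c (0.870) and mir-196b (0.885) came next. Of a list of 21 related miRNAs, 20 had reads and 19 were tested. The list mixed names of vessels and stroma, such as mir-126a and mir-143, with broadly expressed ones, such as mir-191. It also held mir-3074, the hairpin opposite mir-24, and left out the striated muscle, erythroid and leukocyte markers above. Of the 19 tested, none was called higher or lower (0% of all names were). A negative log2 fold change was seen for 14 and a positive one for 5, and the median was -0.71 against -0.04 for all names.

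The 5′ ends separated miR-23 from the other families. Of 5949 reads of the miR-23 3p arms, 5794 began at base 4 of the mature arm, 65 at base 2, 78 one base before base 1, and 0 at base 1. The base-4 reads made up 99.8% and 97.0% in controls, against 100% and 95.3% in Mdd. They lack the first 3 bases, and with them the start of the seed. miR-27a-3p, miR-27b-3p and miR-24-3p began at base 1 in 88.6% to 98.2% of control reads and in 96.5% to 100% in Mdd. Among 73 other mature miRNAs with at least 1000 reads and another first triplet, the median share at base 1 was 97.01% and the median share at base 4 was 0%, with none over 50%.

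The bases missing from the miR-23 reads are ATC in DNA letters. Over all sequences of every kind, ATC was the rarest of the 64 possible first triplets in each library, at 79 and 123 sequences in controls and 84 and 140 in Mdd. The next rarest triplet had 2101 to 3539 sequences. Other mature miRNAs beginning with these bases were few: miR-425-3p had 312 reads, 25.96% of them from base 4 and 0 from base 1, and miR-136-3p and miR-376a-3p had 16 and 14 reads, with 37.5% and 100% from base 4. The part of this general shortage in the miR-23 start was not tested.

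**Figure D3:**
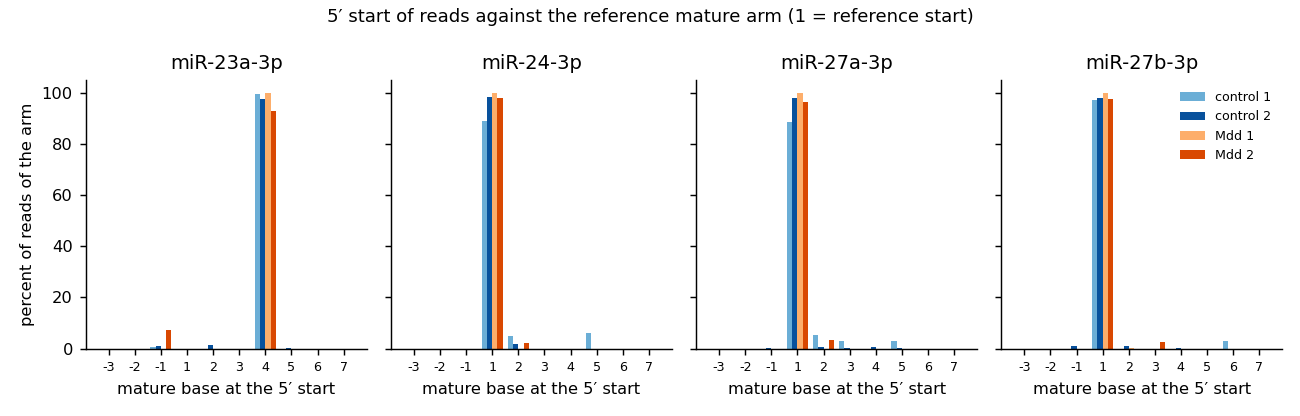
Percent of 3p reads by first base, counted from base 1 of the mature arm, for miR-23a-3p, miR-24-3p, miR-27a-3p and miR-27b-3p in each library. Most miR-23a-3p reads begin at base 4 (92.6% to 100%), and most reads of the other arms at base 1.

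The 18-nt limit left out a larger share of miR-23 than of the other families in every library. Reads of 15 to 17 nt were 30.1% and 29.4% of miR-23 reads in controls, against 26.7% and 31.8% in Mdd. For miR-27 they were 12.4% and 19.6% in controls and 0 in both Mdd libraries, and for miR-24 6.73% and 1.53% in controls and 0 in both Mdd libraries. The 0 allows up to 0.351% and 0.320% in Mdd replicates 1 and 2 for miR-27, or 13.35% and 2.56% with the floor of 3 reads multiplied by copies. For miR-24 it allows up to 0.594% and 0.182%, or 22.6% and 1.46% with copies, so with copies counted, neither control share of miR-24, nor the miR-27 share of control replicate 1, can be told from 0 in Mdd replicate 1. Just outside the limit, at 17 nt, miR-23 had 31 and 601 reads in the controls, and in Mdd 90 and 53, and just inside, at 18 nt, 195 and 1842 in controls, against 438 and 282 in Mdd. Of all member reads of 15 to 17 nt, miR-23 reads from base 4 were 52.3% and 37.0% in controls and 100% in both Mdd libraries (191 of 191 and 203 of 203). Over all miRNA reads the 15-to-17-nt share was 11.1% and 8.06% in controls, against 2.25% and 2.12% in Mdd, and its part in these values was not tested. The most read short sequence of the joint mir-27a/mir-27b name was ttcacagtggctaagt, with 48 and 1332 reads in controls and 0 in Mdd.

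**Figure D4:**
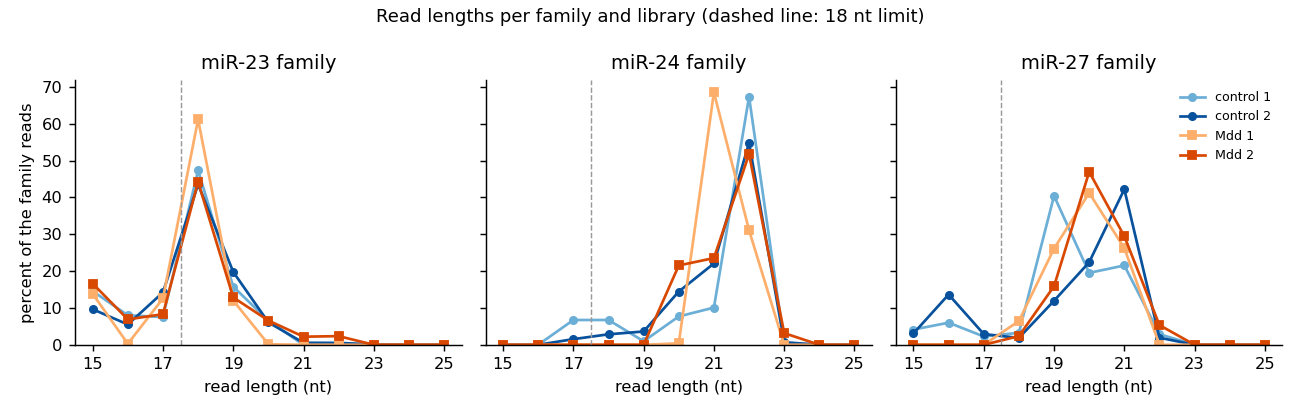
Length of the reads of the miR-23, miR-24 and miR-27 families in each library, as a percent of the family's reads. miR-23 peaks at 18 nt (43.6% to 61.2%), and reads under 18 nt of miR-24 and miR-27 are seen in the controls and not in Mdd.

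The 3′ ends varied between libraries. Among miR-27a-3p reads from base 1, the full 21 nt made up 45.9% and 63.1% in controls, against 70.4% and 24.2% in Mdd. In Mdd replicate 2 the form shorter by 1 nt dominated, at 71.1% against 29.3% to 30.9% in the other 3. miR-27b-3p was full length in 17.6% and 42.6% of reads in controls, with 3.40% and 37.2% in Mdd, and its form shorter by 2 nt led in control replicate 1, at 62.8%. miR-24-3p was full length in 76.0% and 55.6% of reads in controls, but in 31.1% and 53.2% in Mdd, with 68.5% shorter by 1 nt in Mdd replicate 1. Both Mdd libraries lay below both controls for miR-24-3p, but control replicate 2 and Mdd replicate 2 did not differ beyond counting error. Their Wilson intervals, with reads as the unit, overlapped, at 53.0% to 58.3% and 50.7% to 55.6%. The group difference was not tested, and no share over other miRNA arms was set beside it. The groups overlapped for miR-27a-3p and miR-27b-3p. The reference used holds no miR-23b-3p, so its reads were left out of the following share. Over the other arms, the exact mature sequence made up 33.1% and 43.0% of arm-assigned reads in controls, with 23.4% and 39.6% in Mdd (38.1% ± 7.03 against 31.5% ± 11.5, SD, n = 2 each; exact permutation p = 0.667).

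The 5p arms, the passenger side of these duplexes, were rare. The arms detected have these RefSeq sequences, again with the seed in capitals.
miR-23b-5p: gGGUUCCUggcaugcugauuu
miR-24-1-5p: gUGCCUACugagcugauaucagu
miR-24-2-5p: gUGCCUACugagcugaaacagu
miR-27a-5p: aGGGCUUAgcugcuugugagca
miR-27b-5p: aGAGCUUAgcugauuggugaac
Unlike the 3p arm, the 5p arm tells the copies of mir-24 apart, and both share the seed UGCCUAC. miR-24-2-5p had 1 and 56 reads in controls and 0 in Mdd, and miR-24-1-5p had 8 reads in Mdd replicate 2 and 0 elsewhere. miR-23b-5p had 20 reads in control replicate 2 and 24 in Mdd replicate 2, miR-27b-5p had 43 and 22 in those libraries, and miR-27a-5p had 19 and 3 in controls and 0 in Mdd. No read of miR-23a-5p was found.

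In all, 20 of 1182 and 122 of 12396 reads assigned to an arm were 5p in controls (1.69% and 0.984%), and 0 of 1880 and 54 of 3016 in Mdd (0% and 1.79%). The 0 in Mdd replicate 1 allows a share of up to 0.160%, or 6.06% with the floor multiplied by copies. The means of 1.34% ± 0.50 and 0.895% ± 1.27 (SD, n = 2 each) gave an exact permutation p of 1. One further piece of mir-27a, aggtccacagcaaagtcgtg, covers bases 36 to 55 of the hairpin and ends directly before miR-27a-3p. It had 23 reads in control replicate 2, 4 in Mdd replicate 1 and 0 in the other libraries.

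Many reads matched a 3p arm for at least 16 nt and then left the hairpin sequence in their last 1 to 3 bases. Their annotation was no miRNA name, so they are outside the levels above. With the families pooled, between 96.6% and 99.6% of them in each library were labelled piRNA. For miR-23 alone in Mdd replicate 2 it was 82.7%. The most read are shown, with the added base in capitals.
miR-24-3p: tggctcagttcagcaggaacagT
miR-27a-3p: ttcacagtggctaagttccgcT
miR-27a-3p, 1 nt shorter: ttcacagtggctaagttccgT
In the library order used above, the first had 20, 582, 177 and 281 reads, the second 29, 550, 183 and 59, and the third 9, 523, 135 and 69. Tails of T alone made up 55.6% and 69.7% of tailed reads in controls, with 79.3% and 65.5% in Mdd, and tails of A alone 36.4% and 18.7% in controls, against 20.3% and 13.9% in Mdd.

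Of 3p reads with the same start, tailed reads made up 24.1% and 27.04% in controls, against 44.7% and 25.3% in Mdd. In 57 or 58 other mature arms, matched by their first 16 bases, the median was 8.41%, 8.30%, 6.21% and 8.79% in the same order of libraries, with upper quartiles of 21.4%, 19.4%, 20.5% and 17.6%. Those are values of single arms, whereas the miR-23 and miR-27 values pool a pair of arms. For miR-27 it was 29.6% and 28.0% in controls, against 55.3% and 30.5% in Mdd, and for miR-23 12.8% and 17.2% in controls, against 19.8% and 26.7% in Mdd. For both families the Mdd libraries lay above the controls, as they did in 7 of 57 other arms (12.3%), and the exact permutation p was 0.333, the lowest possible. For miR-23 the groups overlapped once tailed reads that match the genome were left out. For miR-24, a single arm, the groups overlapped, at 17.9% and 38.1% in controls, against 39.95% and 21.6% in Mdd. It lay below the upper quartile of other arms in control replicate 1 and above it in the other 3 libraries.

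**Figure D5:**
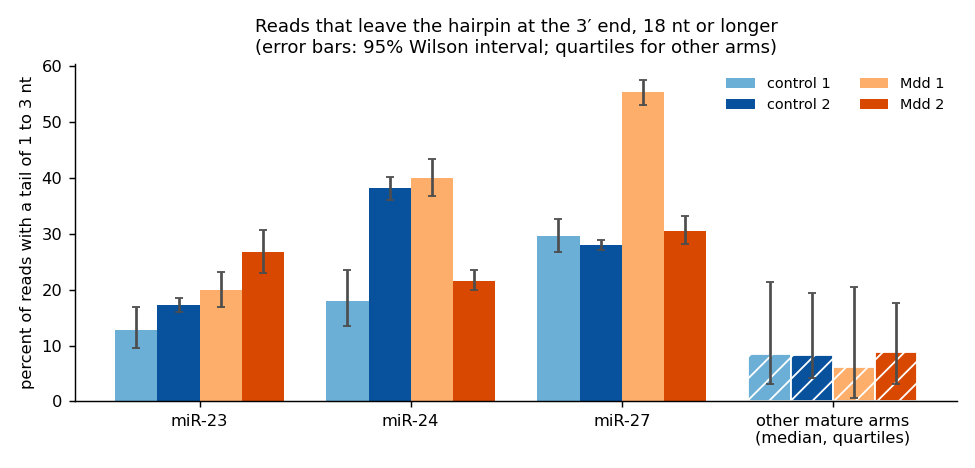
Percent of 3p reads with the same start that carry 1 to 3 bases outside the hairpin, for the miR-23, miR-24 and miR-27 families in each library, beside other mature arms. The highest family value is 55.3%, for miR-27 in Mdd replicate 1. Other arms of that library had a median of 6.21% and an upper quartile of 20.5%, and single ones were higher than miR-27, up to 80.05% for miR-465c-5p.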

How the data were processed

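Small RNA of 2 control and 2 Mdd samples was sequenced after selection of short RNA, per the labels' protocols. The deposited tables hold one row per distinct sequence of 15 to 45 nt with its raw read count, length, genome match and annotation, per the file headers. Per the submitters' processing notes DESeq2 and mm9 were used, with no version. The sources used here do not give the aligner, the trimming or the annotation databases.

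Tables were joined by sequence, and the annotation of a sequence came from the first file with a name for it. Counts of 18 nt or longer were summed per hairpin name and tested with edgeR 4.0.16 (quasi-likelihood, TMM, filterByExpr, Benjamini-Hochberg over all names, threshold 0.05) in R 4.3.3. DESeq2 1.42.0 was an alternative. Single shares were compared with exact permutation tests over the samples (Python 3.11.15), and Wilson intervals came from scipy 1.17.1. Arms were assigned by an overlap of at least 10 nt with the RefSeq mature arm on the hairpin. The other alternatives were library sizes, filters, lengths, annotation, arm rule, replicate block and leaving out each sample.

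The names given are all 5 hairpins and their joint names, the 5 names of the most similar levels among those with at least 100 CPM, and the most read sequence of each 3p arm, and the hairpins, marker lists and related list were chosen with earlier results of these data known. The first-base comparison, tails and loop piece were added after the data were seen. On simulated data for Mdd against control with the estimated spread, 0% of 4-fold and 40% of 16-fold changes were recovered among 215 names. With that spread divided by 10, 85% of 4-fold changes were recovered among 227 names.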

Additional observations from a re-analysis of the deposited data

Results flagged for a closer look

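Reads with a tail outside the hairpin carry no miRNA annotation and lie outside the comparison of levels, and 2 families had a higher share of them in both Mdd libraries than in both controls. The same held for 7 of 57 other mature arms (12.3%). For the miR-23 family the mean share was 23.3% ± 4.83 (SD, n = 2) in Mdd and 14.97% ± 3.12 (SD, n = 2) in controls. Only 57.7% of its tailed reads in Mdd replicate 1 did not match the genome. Whether the genome-matched ones come from these hairpins, and whether the difference holds without them, was not tested. In Mdd replicate 2 a single sequence held 57 of the 139 tailed miR-23 reads. For the miR-27 family it was 42.9% ± 17.5 (SD, n = 2) in Mdd and 28.8% ± 1.15 (SD, n = 2) in controls, and the Mdd libraries, at 55.3% and 30.5%, lay far apart. Both differences had an exact permutation p of 0.333, which is the smallest that 2 against 2 samples can give.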

How the results depend on the processing

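Of 215 alternative values, 192 kept their direction and their side of the threshold (within 1.5 times for the count of calls, which stayed at 0), 12 reversed and 11 moved otherwise. mir-23b, mir-27b and the miR-23 and miR-27 family sums had a negative log2 fold change in all 17 alternatives each, with none passing, but without control replicate 2 mir-27b was at -0.42, the miR-27 sum at -0.34 (-1.54 with all samples) and the miR-23 sum at -0.028 (-1.11 with all samples). The names called numbered 0 in the edgeR test, 5 with all reads as library size, 5 with DESeq2, 6 with no filter, 6 with a mean of at least 10 CPM, 1 with robust dispersion, 1 with all lengths, and 0 to 16 leaving out 1 sample each (16 without Mdd replicate 2, 7 without control replicate 1, 5 without Mdd replicate 1, 0 without control replicate 2). The median log2 fold change of all names, to which a change is relative, was -0.04 with TMM, 0.089 with RLE scaling and -1.10 with all reads as library size. The replicate block gave 4 calls. Deviations of same-numbered samples had a correlation of -0.03 over 236 names. With 2 samples per group this value cannot settle whether same-numbered samples were paired or shared a batch. Leaving out 1 sample each, the log2 fold change ran from -2.0 to 0.72 for mir-23a and from -1.10 to 0.094 for mir-27a/mir-27b, the positive ends without control replicate 2, and mir-27a ran from -2.82, its one call, without control replicate 1 to -0.24 without control replicate 2. For mir-24 it ran from -0.47 (without Mdd replicate 2) to 2.03 and for its family sum from -0.51 to 2.02, and with all reads as library size both were at -0.21 and mir-27a at -3.42. With all lengths mir-27a/mir-27b was at -3.93. Leaving out 1 sample each moved the Mdd minus control difference, in percentage points, from -2.63 to 0.434 for the members' share (0.434 without control replicate 2, 0.0319 without Mdd replicate 1), from -1.34 to 0.452 for the 5p share (0.452 without Mdd replicate 1), from -16.05 to 9.55 for the mir-23a cluster share (9.55 without control replicate 2) from -14.6 to 1.55 for the exact mature share (1.55 without Mdd replicate 1) and from 12.9 to 40.6 for the miR-24 share of member reads. The exact mature share also reversed, to 2.24, with any 3′ end allowed. The alternatives chosen after seeing the data, with miR-23 reads from base 4 counted as 3 nt longer or without miR-23a reads, reversed nothing. The cause of the reversals was not tested. Where 1 sample of a group was left, it was assumed to vary like the other group. Copies per sequence limit Mdd replicate 1 most.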
